A study of Mus musculus with 6 samples.

Results

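The 9 genes described here encode the sterol regulatory element-binding proteins (SREBPs) and the proteins that hold, carry, cut and degrade them: Srebf1, Srebf2, Scap, Insig1, Insig2, Mbtps1, Mbtps2, Rnf139 and Fbxw7. They were taken by symbol, each matched 1 row, and they are 9 of the 22851 genes in the deposited matrix. All 9 passed the filter on low values, an FPKM value (fragments scaled to transcript length and library size) above 1 in at least 3 libraries, which kept 10743 genes. Mbtps2 and Fbxw7 passed it narrowly, with 4 of 6 libraries above 1.

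Liver RNA came from male C57BL/6J mice, all on a high-fat diet. The treated mice received ONX-0914, an inhibitor of the immunoproteasome subunit PSMB8, injected subcutaneously at 10 mg/kg on alternate days over 6 weeks, and the control mice received vehicle. Libraries ONX-0914 1, 3 and 4 were compared with vehicle 1, 2 and 4. The design text gives 2 animals per group while each group has 3 libraries, and the animals' age and the length of the diet are not stated. The labels do not say whether each library is a separate animal, so p-values rest on the spread among the 6 libraries, which may be partly technical.

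SREBPs are made as membrane proteins of the endoplasmic reticulum. SCAP escorts them into COPII vesicles bound for the Golgi when sterols are low, and INSIG1 and INSIG2 hold SCAP back when sterols are high. In the Golgi the site-1 protease (gene Mbtps1) and the site-2 protease (Mbtps2) release the transcription factor domain, which enters the nucleus, binds sterol regulatory elements and is later marked for degradation by FBXW7. In liver, SREBP-1 chiefly drives fatty acid and triglyceride genes, SREBP-2 chiefly drives cholesterol synthesis and LDL uptake, and Srebf1, Srebf2 and Insig1 are themselves SREBP targets. Transcript levels do not show how much SREBP is cut or nuclear.

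Promoter sequence is shown for the 2 Insig genes, which had the largest falls of the 9, and for the 2 Srebf genes, whose products the INSIG proteins hold back. The sequences are RefSeq's, from build GRCm38.p6, and run 5′ to 3′ on the gene's strand through the last base before the start that no annotated exon of the gene covers. Capitals mark 4 letter patterns searched on both strands: the sterol regulatory element core TCACNCC, the E-box CACGTG, the CCAAT box CCAAT and the GC box GGGCGG. Insig1 is shown from chr5:28071162-28071362 (plus strand), Srebf2 from chr15:82147019-82147180 (plus) and Srebf1 from chr11:60210472-60210721 (minus), before the most downstream of its 3 RefSeq starts. Insig2 is shown from chr1:121328025-121328274 (minus), before the second of its 3 RefSeq starts, chosen because a sterol regulatory element core lies just before that start.
Insig1: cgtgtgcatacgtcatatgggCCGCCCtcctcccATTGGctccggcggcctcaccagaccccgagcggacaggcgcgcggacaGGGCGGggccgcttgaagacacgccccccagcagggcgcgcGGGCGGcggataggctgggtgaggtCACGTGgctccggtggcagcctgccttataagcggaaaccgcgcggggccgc
Insig2: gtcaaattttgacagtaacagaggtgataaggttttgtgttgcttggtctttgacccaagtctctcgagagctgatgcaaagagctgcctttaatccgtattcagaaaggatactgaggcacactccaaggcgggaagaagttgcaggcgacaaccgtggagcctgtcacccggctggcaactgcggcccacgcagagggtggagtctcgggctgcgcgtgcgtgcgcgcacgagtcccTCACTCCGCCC
Srebf2: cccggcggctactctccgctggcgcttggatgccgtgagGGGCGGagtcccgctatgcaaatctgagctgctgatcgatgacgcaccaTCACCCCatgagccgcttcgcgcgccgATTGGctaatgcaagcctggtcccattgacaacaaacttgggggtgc
Srebf1: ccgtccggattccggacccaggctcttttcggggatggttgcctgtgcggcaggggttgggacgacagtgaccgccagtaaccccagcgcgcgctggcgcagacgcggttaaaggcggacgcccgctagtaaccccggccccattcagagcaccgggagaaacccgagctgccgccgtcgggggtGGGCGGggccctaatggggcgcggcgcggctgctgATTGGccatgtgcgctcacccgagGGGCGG

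In the Insig1 sequence the E-box begins 101 bases before the RefSeq start and is accompanied by a CCAAT box and 3 GC boxes. The Srebf2 sequence holds a sterol regulatory element core 162 bases before the start, a CCAAT box at 135 bases and a GC box at 211 bases. At the 3′ end of the Insig2 sequence the capitals are a sterol regulatory element core that begins 11 bases before the start and a GC box on the other strand that begins 6 bases before it, and they overlap. In the Srebf1 sequence the capitals are 2 GC boxes and a CCAAT box. Only exact matches were marked. Letters 1 base away from the sterol regulatory element core, such as tcacccg in the Srebf1 and Insig2 sequences, stay lower-case. RefSeq entries were matched for 8 of the 9 genes, Rnf139 being the exception, with 15 windows of 300 bases (250 before and 50 after a start). The sterol regulatory element core occurred in 3 of these 15 windows, from Srebf2 and Insig2, and in 15.6% of all 32851 windows. The E-box occurred in 3 windows, from Insig1 and Scap, and in 7.15% of all windows. The Scap windows overlap each other, so the same E-box is counted in both of them. CCAAT occurred in 5 windows and in 37.4% of all, and the GC box in 11 windows and in 35.7% of all. A match describes letters only. A window without one says nothing of a site with other letters or of a site elsewhere in the gene. Srebf1 and Insig2 each have 3 starts, and the matrix gives 1 value per gene, so transcripts from different starts, SREBP-1a and SREBP-1c among them, cannot be told apart.

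Several features of the libraries touch all 9 genes. Deposited FPKM summed to 1041391 to 1247789 in ONX-0914 libraries and 993264 to 1074027 in vehicle libraries. Read totals were not given, so absolute depth is unknown, and low values gave relative depths of 0.866 to 1.00 in ONX-0914 libraries and 1.00 to 1.29 in vehicle libraries. The median of all genes tested had a log2 fold change of -0.64, ONX-0914 over vehicle. Long transcripts were lower relative to short ones in ONX-0914 libraries: the quartile of longest genes minus that of the shortest was -0.95, -0.25 and -0.99 log2 units in ONX-0914 1, 3 and 4, compared with 0.04, -0.01 and -0.03 in vehicle 1, 2 and 4. ONX-0914 3 differed from the rest of its group, at 10.6 on the first principal component against 73.95 and 67.81 for ONX-0914 1 and 4, with vehicle between -56.07 and -47.2. The 9 genes and the lists around them are therefore also given after median-ratio scaling (dividing a library by its median ratio to the geometric mean of all libraries, which brings the median gene to 0.00) and after removal of each library's trend over transcript length (median gene 0.02). Summed FPKM of 14 hepatocyte markers was 65586 to 98008 in ONX-0914 livers and 87590 to 93076 in vehicle livers, with none at 0, and 6 fell and 2 rose as deposited, beside 43.5% of all genes called lower and 2.56% higher (3 fell without ONX-0914 4 or vehicle 4, 4 without ONX-0914 1, vehicle 1 or vehicle 2). Summed endothelial markers were 38.3 to 71.4 in ONX-0914 livers and 226 to 234 in vehicle livers, and all 14 fell. Kupffer cell and macrophage markers were 627 to 1025 in ONX-0914 livers and 1243 to 1876 in vehicle livers, and 10 of 13 fell (6 without vehicle 1). Stellate cell markers were 80.0 to 184 in ONX-0914 livers and 314 to 380 in vehicle livers, and 8 of 12 fell. After median-ratio scaling 11 endothelial, 4 Kupffer and macrophage and 4 stellate markers fell, and 3 hepatocyte markers rose, beside 13.7% of all genes lower and 14.3% higher. With the length trend removed these counts were 10, 8, 2 and 3, beside 11.6% of all genes lower and 9.4% higher. Cholangiocyte markers were 72.5 to 124 in ONX-0914 livers and 74.3 to 78.3 in vehicle livers, with Cftr at 0 in some libraries. Neutrophil and lymphocyte markers were 184 to 4401 in ONX-0914 livers, lowest in ONX-0914 3, and 302 to 1775 in vehicle livers, with Ly6g, Cd3e, Cd79a and Ms4a1 among those at 0 in some libraries. In bulk liver, fewer cells of a type and less RNA per cell cannot be told apart, and the part of these shifts in the results below was not tested.

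As deposited, 6 of the 9 genes fell with ONX-0914 (Srebf2, Scap, Insig1, Insig2, Mbtps1 and Mbtps2; limma, adjusted p under 0.05), beside 43.5% of all genes tested. None of the 9 rose, beside 2.56% of all genes. At an unadjusted limma p under 0.05, 8 of the 9 were lower, beside 5505 of all 10743 genes. None of the 9 was higher at that threshold, beside 430 of all genes. The median log2 fold change of the 9 was -0.82, against -0.64 over all genes. In 6 of the 9 (Srebf2, Scap, Insig1, Insig2, Mbtps1 and Rnf139) every ONX-0914 library lay below every vehicle library, beside 53.5% of all genes. After median-ratio scaling, only Insig1 fell, beside 13.7% of all genes lower and 14.3% higher, and the median of the 9 was -0.25 against 0.00. After length-trend removal Insig1 was again the only call, beside 11.6% lower and 9.4% higher, and the median of the 9 was 0.06 against 0.02. Leaving out ONX-0914 3 gave 7 falls, with Rnf139 added, beside 60.6% of all genes. ONX-0914 3 alone against vehicle, where the spread comes from the vehicle libraries and is assumed to hold for the lone treated one, gave 3 falls (Srebf1, Scap and Insig1), beside 27.9%. Leaving out vehicle 1 left Insig1 as the only fall, beside 24.1% of all genes. Leaving out ONX-0914 1 left 3 falls, beside 29.8%, and leaving out vehicle 2 left 3, beside 26.4%. There were 4 falls without ONX-0914 4, beside 28.2%, and 4 without vehicle 4, beside 27.6%. With libraries scaled to equal sums 8 fell, Srebf1 and Rnf139 added, beside 47.4%.

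**Figure D1:**
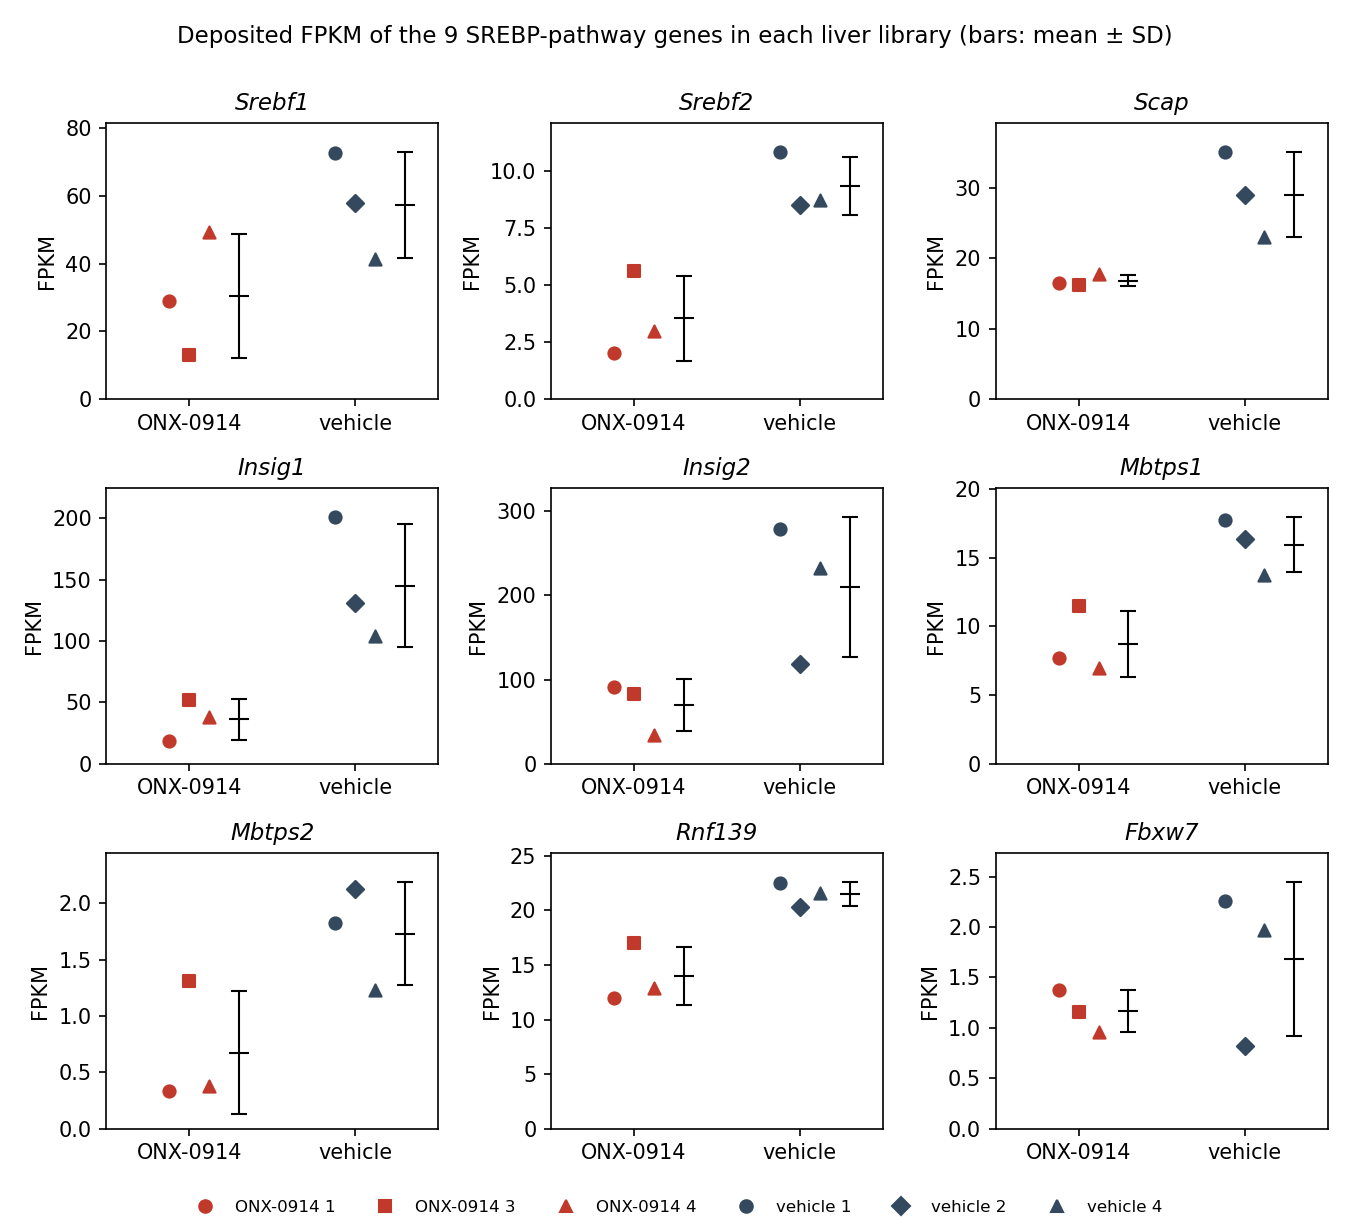
Deposited FPKM of each of the 9 genes (y axis, linear, from 0) in each library, with ONX-0914 on the left and vehicle on the right of each panel and the mean ± SD beside the points (n = 3 per group). The groups are fully apart for Srebf2, Scap, Insig1, Insig2, Mbtps1 and Rnf139 and overlap for Srebf1, Mbtps2 and Fbxw7.

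FPKM is a per-length unit, so levels can be ordered between genes. The length trend given above was not removed here, and it lowers long transcripts relative to short ones in the ONX-0914 order. In ONX-0914 livers the mean FPKM ran from Insig2 (69.7) through Insig1 (36.2), Srebf1 (30.3), Scap (16.8), Rnf139 (13.99), Mbtps1 (8.72) and Srebf2 (3.54) to Fbxw7 (1.17) and Mbtps2 (0.677). In vehicle livers the order was Insig2 (210), Insig1 (145), Srebf1 (57.3), Scap (29.0), Rnf139 (21.5), Mbtps1 (16.0), Srebf2 (9.35), Mbtps2 (1.73) and Fbxw7 (1.68). Neighbours whose libraries overlapped in both groups were Insig2 with Insig1, and Mbtps2 with Fbxw7. In ONX-0914 livers Insig1 also overlapped Srebf1, Srebf1 overlapped Scap, and Scap overlapped Rnf139. In vehicle livers, apart from the 2 pairs of neighbours above, no gene's libraries overlapped those of the next.

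Of the transcription factor genes, Srebf1, which encodes SREBP-1a and SREBP-1c, lies on the minus strand at chr11:60199089-60222581 (GRCm38, as are all gene positions below). It was at 28.8, 12.9 and 49.3 FPKM in libraries ONX-0914 1, 3 and 4, compared with 72.6, 57.9 and 41.5 FPKM in vehicle 1, 2 and 4. ONX-0914 4 was above vehicle 4, so the groups overlapped, and ONX-0914 3 was the lowest library. The means were 30.3 ± 18.3 FPKM in ONX-0914 livers and 57.3 ± 15.6 FPKM in vehicle livers (SD, n = 3 each). The log2 fold change of -1.05 (SE 0.43, 95% confidence interval -2.01 to -0.09) did not pass over all genes (limma adjusted p = 0.0686). It was -0.25 after median-ratio scaling (adjusted p = 0.743) and -0.17 after length-trend removal (adjusted p = 0.851). It did pass with ONX-0914 4 left out, at -1.49 (adjusted p = 0.0281), and with ONX-0914 3 alone, at -2.04 (adjusted p = 0.00402), while without ONX-0914 3 it was -0.56 (adjusted p = 0.121).

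Srebf2, which encodes SREBP-2, lies on the plus strand at chr15:82147181-82205379. Its FPKM was 2.01, 5.61 and 3.00 in ONX-0914 1, 3 and 4, compared with 10.8, 8.49 and 8.73 in vehicle 1, 2 and 4. The groups did not overlap, also after median-ratio scaling. It fell to 3.54 ± 1.86 FPKM in ONX-0914 livers, against 9.35 ± 1.28 FPKM in vehicle livers (SD, n = 3 each), a log2 fold change of -1.26 (SE 0.32, interval -1.99 to -0.53, limma adjusted p = 0.0135). After median-ratio scaling the change was -0.58 (adjusted p = 0.115), and after length-trend removal -0.35 (adjusted p = 0.266), neither of which passed. Without vehicle 1 it was -1.16 and missed the threshold (adjusted p = 0.0634), as did ONX-0914 3 alone, at -0.64 (adjusted p = 0.0617).

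As deposited, the genes of the retention proteins had the largest differences of the 9. Insig1, whose protein anchors SCAP in the endoplasmic reticulum and helps to degrade HMG-CoA reductase, lies on the plus strand at chr5:28071363-28078662. It was at 19.0, 51.8 and 38.0 FPKM in libraries ONX-0914 1, 3 and 4, compared with 201, 131 and 104 FPKM in vehicle 1, 2 and 4. The highest treated library was below the lowest vehicle library, with or without median-ratio scaling. Insig1 fell to 36.2 ± 16.5 FPKM in ONX-0914 livers, against 145 ± 50.002 FPKM in vehicle livers (SD, n = 3 each), with a log2 fold change of -2.03 (SE 0.37, interval -2.86 to -1.19, limma adjusted p = 0.00382). The fall was -1.22 after median-ratio scaling (adjusted p = 0.0309) and -1.35 after length-trend removal (adjusted p = 0.0248). Among the 9 genes it alone was called in each of the 19 alternative settings, with log2 fold changes from -2.38 to -1.22 and adjusted p from 0.000591 to 0.0309. ONX-0914 3 alone gave -1.41 (adjusted p = 0.0183).

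Insig2, the INSIG gene that in liver is also made from an insulin-repressed transcript, lies on the minus strand at chr1:121304353-121332589. Its FPKM was 91.0, 83.5 and 34.4 in ONX-0914 1, 3 and 4, compared with 279, 118 and 233 in vehicle 1, 2 and 4. ONX-0914 4 was the lowest library and vehicle 2 the lowest control, and the groups did not overlap as deposited but did after median-ratio scaling, where ONX-0914 1 (132) lay above vehicle 2 (89.1). Insig2 fell to 69.7 ± 30.7 FPKM in ONX-0914 livers, against 210 ± 82.9 FPKM in vehicle livers (SD, n = 3 each), a log2 fold change of -1.61 (SE 0.41, interval -2.54 to -0.68, limma adjusted p = 0.0136). It was -0.80 after median-ratio scaling (adjusted p = 0.165) and -0.93 after length-trend removal (adjusted p = 0.130), and was called in 14 of the 19 alternatives. Without vehicle 1 it was -1.36 (adjusted p = 0.0558), and ONX-0914 3 alone gave -1.23 (adjusted p = 0.0623). The longest coding transcript of each Insig gene is 2697 bases, the shortest of the 9 genes, against 4227 to 5077 bases for the other 7.

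Scap, the sterol-sensing escort, lies on the plus strand at chr9:110333288-110384950. It was at 16.4, 16.2 and 17.7 FPKM in libraries ONX-0914 1, 3 and 4, compared with 35.03, 28.98 and 23.03 FPKM in vehicle 1, 2 and 4. The treated libraries were close to each other and all below the vehicle libraries. Scap fell to 16.8 ± 0.774 FPKM in ONX-0914 livers, against 29.0 ± 6.00 FPKM in vehicle livers (SD, n = 3 each), a log2 fold change of -0.74 (SE 0.23, interval -1.25 to -0.22, limma adjusted p = 0.0274). The value was 0.05 after median-ratio scaling (adjusted p = 0.891) and 0.14 after length-trend removal (adjusted p = 0.695), so its direction turned with the scaling. The call was lost without ONX-0914 1 (-0.72, adjusted p = 0.0580), ONX-0914 4 (-0.77, adjusted p = 0.0581), vehicle 1 (-0.59, adjusted p = 0.139) or vehicle 2 (-0.73, adjusted p = 0.0970).

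**Figure D2:**
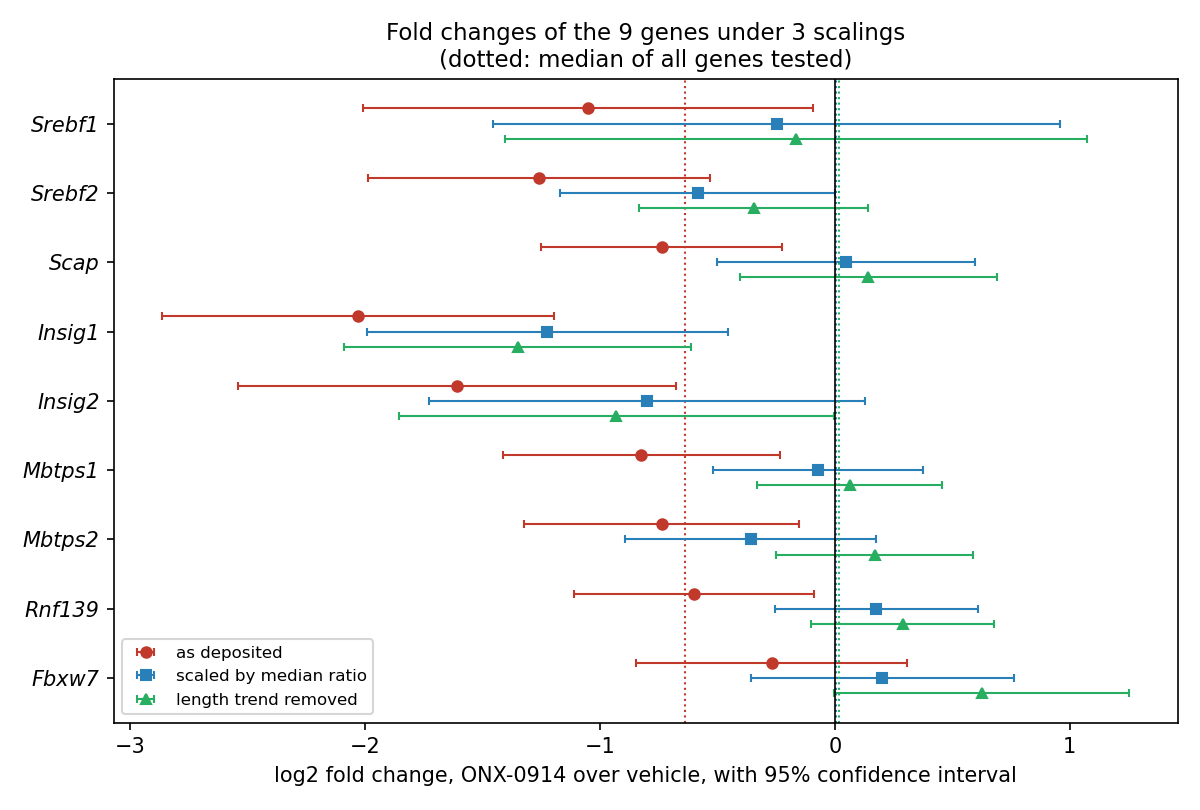
Log2 fold change of each of the 9 genes, ONX-0914 over vehicle (x axis), with its 95% confidence interval, for values as deposited (circles), after median-ratio scaling (squares) and after length-trend removal (triangles); dotted lines give the median of all genes tested in the same colours. The interval of Insig1 lies below 0 in all 3, and as deposited Scap, Mbtps1, Mbtps2 and Rnf139 lie close to the median of all genes at -0.64.

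On the log2(FPKM + 1) scale as deposited, the protease genes had smaller differences than the Insig genes. Mbtps1, whose product makes the first cut in the Golgi, lies on the minus strand at chr8:119508156-119558735. It was at 7.68, 11.5 and 6.99 FPKM in libraries ONX-0914 1, 3 and 4, compared with 17.7, 16.4 and 13.8 FPKM in vehicle 1, 2 and 4. The groups did not overlap, and ONX-0914 3 was nearest to vehicle. Mbtps1 fell to 8.72 ± 2.43 FPKM in ONX-0914 livers, against 16.0 ± 2.01 FPKM in vehicle livers (SD, n = 3 each), a log2 fold change of -0.82 (SE 0.26, interval -1.41 to -0.24, limma adjusted p = 0.0298). After median-ratio scaling it was -0.07 (adjusted p = 0.801), and after length-trend removal it was 0.06 (adjusted p = 0.819). Its call held without ONX-0914 3 (-1.02, adjusted p = 0.00178) and was lost without ONX-0914 1 or 4 (adjusted p = 0.0757 and 0.0908) and without vehicle 1, 2 or 4 (adjusted p = 0.125, 0.105 and 0.0636).

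Mbtps2, whose product makes the second cut within the membrane, lies on the minus strand at chrX:157535371-157598715. Its FPKM was 0.34, 1.31 and 0.38 in ONX-0914 1, 3 and 4, compared with 1.83, 2.13 and 1.23 in vehicle 1, 2 and 4. ONX-0914 3 lay above vehicle 4, so the groups overlapped, and the values lay near the filter's threshold of 1 FPKM. How many reads such low values rest on is not known. Mbtps2 fell to 0.677 ± 0.549 FPKM in ONX-0914 livers, against 1.73 ± 0.458 FPKM in vehicle livers (SD, n = 3 each), a log2 fold change of -0.74 (SE 0.26, interval -1.32 to -0.15, limma adjusted p = 0.0431). The scale of log2(FPKM + 1) understates the change of so low a gene: with 0.1 added in place of 1 it was -1.42, and was not called (adjusted p = 0.0613). It was not called with a filter on the mean FPKM (adjusted p = 0.0505) or with no filter (adjusted p = 0.0709) either. After median-ratio scaling the value was -0.36 (adjusted p = 0.266) and after length-trend removal 0.17 (adjusted p = 0.524). The call was lost without ONX-0914 1 or 4 (adjusted p = 0.144 and 0.136) and without vehicle 1, 2 or 4 (adjusted p = 0.121, 0.140 and 0.0579).

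The ubiquitin ligase genes were not called. Rnf139, also known as TRC8, encodes a sterol-responsive ligase of the endoplasmic reticulum that binds SREBP-2 and SCAP, and lies on the plus strand at chr15:58889229-58907057. It was at 12.02, 17.05 and 12.9 FPKM in libraries ONX-0914 1, 3 and 4, compared with 22.5, 20.3 and 21.6 FPKM in vehicle 1, 2 and 4, with no overlap. The means were 13.99 ± 2.69 FPKM in ONX-0914 livers and 21.5 ± 1.109 FPKM in vehicle livers (SD, n = 3 each), and the log2 fold change was -0.60 (SE 0.23, interval -1.11 to -0.09, limma adjusted p = 0.0556), close to the median of all genes. It was 0.18 after median-ratio scaling (adjusted p = 0.502) and 0.29 after length-trend removal (adjusted p = 0.249). Without ONX-0914 3 it passed, at -0.74 (adjusted p = 0.00487).

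Fbxw7, the substrate receptor of the SCF ligase that takes phosphorylated nuclear SREBP, lies on the plus strand at chr3:84815268-84979198. Its FPKM was 1.38, 1.16 and 0.96 in ONX-0914 1, 3 and 4, compared with 2.26, 0.82 and 1.97 in vehicle 1, 2 and 4. Vehicle 2 was the lowest of all 6 libraries, so the groups overlapped. The means were 1.17 ± 0.210 FPKM in ONX-0914 livers and 1.68 ± 0.762 FPKM in vehicle livers (SD, n = 3 each), with a log2 fold change of -0.27 (SE 0.26, interval -0.85 to 0.31, limma adjusted p = 0.403). It was not called in any of the 19 alternatives, and was -0.11 without vehicle 1, -0.17 without vehicle 4 and -0.53 without vehicle 2. After length-trend removal its value was 0.62 (adjusted p = 0.133), the opposite direction.

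The 9 genes did not rank the treated libraries alike. Measured against the vehicle mean on the log2(FPKM + 1) scale, the median of all genes was -0.74, -0.38 and -0.79 in ONX-0914 1, 3 and 4. Srebf2 (-1.77, -0.64 and -1.36), Mbtps1 (-0.96, -0.43 and -1.08), Mbtps2 (-1.01, -0.23 and -0.97) and Rnf139 (-0.79, -0.32 and -0.69) followed that order of ONX-0914 3 least. Insig1 did too, at -2.82, -1.41 and -1.85. Srebf1 ran the other way, at -0.93, -2.04 and -0.18, with ONX-0914 3 the farthest below vehicle and ONX-0914 4 nearest to it. Scap was nearly level, at -0.76, -0.78 and -0.67. Insig2 was at -1.11, -1.23 and -2.49, with ONX-0914 4 lowest.

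**Figure D3:**
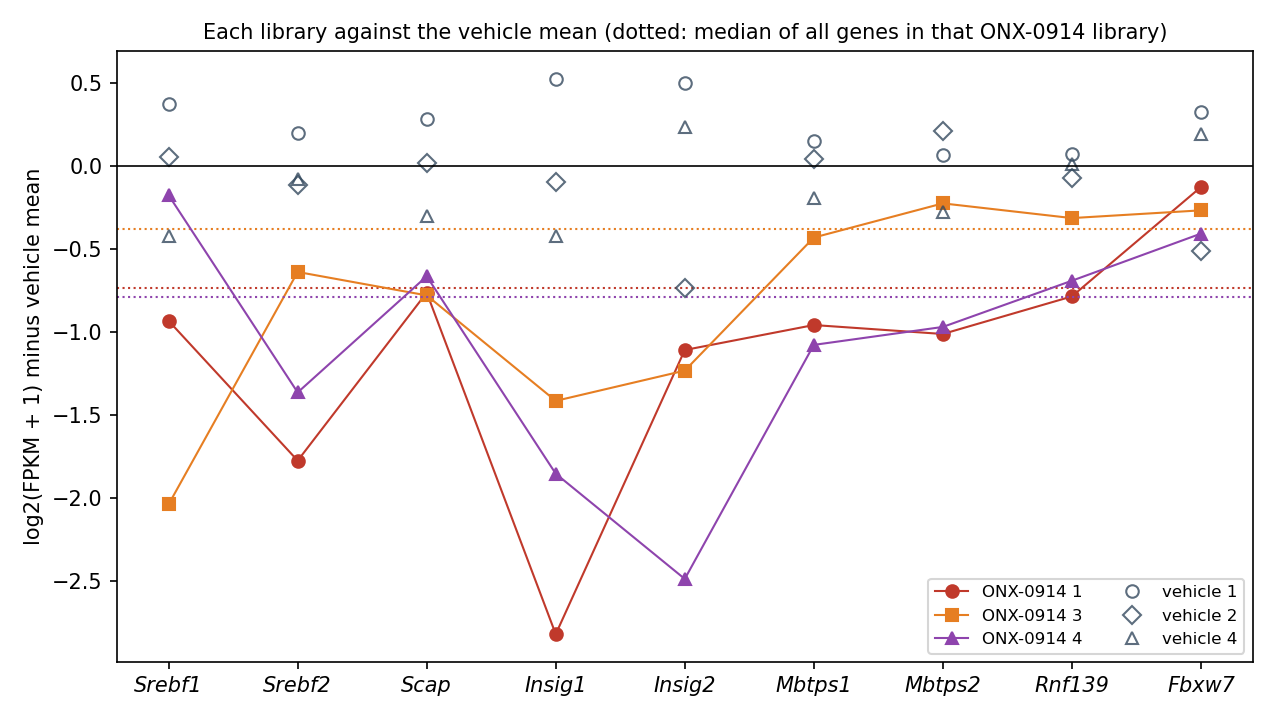
Each library's log2(FPKM + 1) minus the vehicle mean (y axis) for each of the 9 genes (x axis), with ONX-0914 libraries as filled joined symbols and vehicle libraries as open symbols; dotted lines give the median of all genes in each ONX-0914 library. Srebf1 is lowest in ONX-0914 3 (-2.04), where Srebf2, Insig1, both Mbtps genes and Rnf139 are least lowered.

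A ratio of FPKM values within a library does not move with a factor common to all its genes. The differences between groups were taken on log2(FPKM + 1), which does move with such a factor where a gene is low. The Scap to Insig1 ratio was 0.868, 0.314 and 0.466 in ONX-0914 1, 3 and 4, compared with 0.175, 0.222 and 0.222 in vehicle 1, 2 and 4. Every treated library was above every vehicle library, and the difference was 1.29 log2 units (exact two-sided permutation test, p = 0.1, the smallest that 3 against 3 can give). It was 1.27 after median-ratio scaling and 1.49 after length-trend removal. The Srebf1 to Srebf2 ratio was 14.3, 2.29 and 16.4 in ONX-0914 1, 3 and 4, compared with 6.71, 6.82 and 4.75 in vehicle 1, 2 and 4. ONX-0914 3 lay below the vehicle range and the other 2 treated libraries above it (difference 0.21, exact permutation p = 1; 0.34 after median-ratio scaling and 0.18 after length-trend removal), and the sign turned without ONX-0914 1 (-0.11) or ONX-0914 4 (-0.28). The Insig1 to Insig2 ratio was 0.208, 0.620 and 1.10 in ONX-0914 1, 3 and 4, compared with 0.718, 1.10 and 0.447 in vehicle 1, 2 and 4, with overlapping groups (difference -0.42, exact permutation p = 0.6), and it was 0.23 without ONX-0914 1. The Mbtps1 to Mbtps2 ratio was 22.6, 8.78 and 18.4 in ONX-0914 1, 3 and 4, compared with 9.68, 7.68 and 11.2 in vehicle 1, 2 and 4. On the log2 scale with 1 added to each FPKM its difference was -0.09 (exact permutation p = 0.5), a sign set by the amount added and the scaling, since with 0.1 added it was 0.53 and after median-ratio scaling 0.29. Adjusted over these 4 ratios by Benjamini-Hochberg, the smallest permutation p was 0.4.

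**Figure D4:**
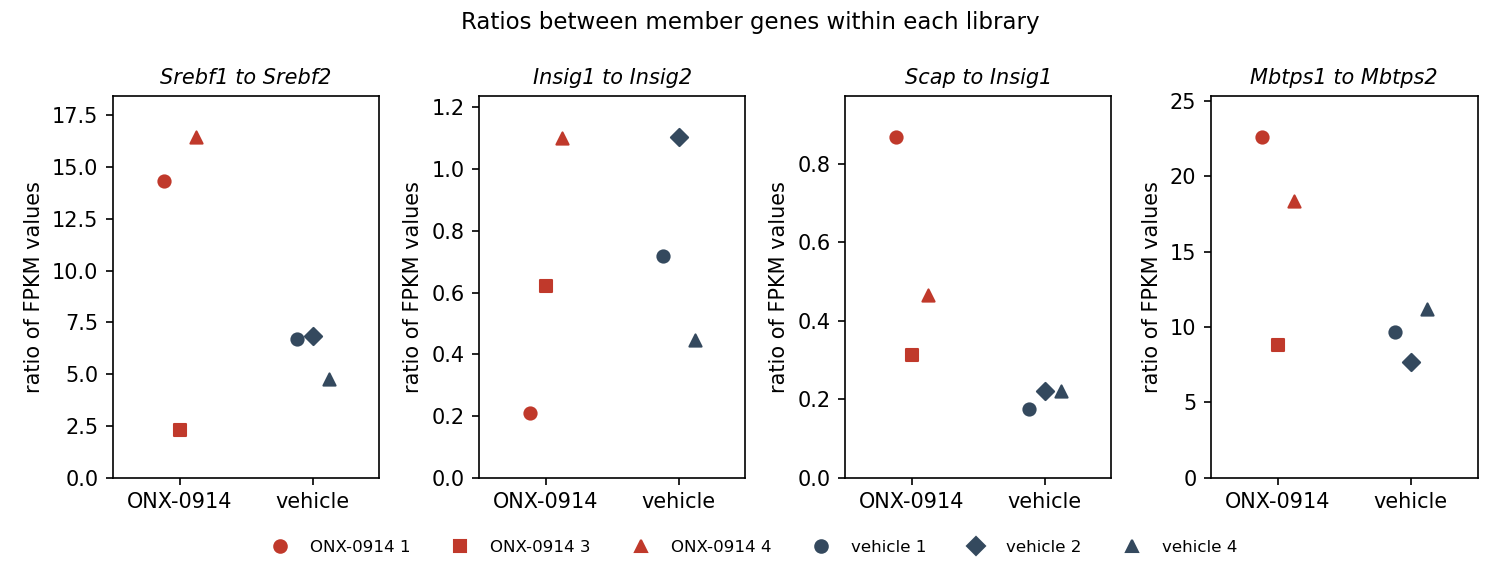
Ratio of FPKM values of 4 gene pairs within each library (y axes, linear, from 0), with ONX-0914 on the left and vehicle on the right of each panel. Scap to Insig1 is the only pair with every ONX-0914 library (0.314 to 0.868) above every vehicle library (0.175 to 0.222).

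The genes with the nearest profiles were found by the root mean square difference of centred log2(FPKM + 1) over the 6 libraries, among 10435 genes with a mean FPKM of at least 1, as a description. Srebf2 had close neighbours in Uevld (0.0520), Mtdh (0.0557) and Pdcd4 (0.0599), each of them highest in vehicle 1 and, among treated libraries, in ONX-0914 3. Mtdh was at 4.34, 9.95 and 6.31 FPKM in libraries ONX-0914 1, 3 and 4, compared with 19.4, 16.7 and 16.5 FPKM in vehicle 1, 2 and 4. Insig1 was nearest to Pgrmc2 (0.170), Mfsd4b1 (0.172) and Rnf14 (0.173). Insig2 was nearest to Arntl (0.155), which encodes the clock factor BMAL1, then to Clpx (0.196) and Fkbp14 (0.241). Arntl was at 2.88, 2.29 and 0.74 FPKM in libraries ONX-0914 1, 3 and 4, compared with 10.2, 4.83 and 7.68 FPKM in vehicle 1, 2 and 4, sharing with Insig2 its low ONX-0914 4 and low vehicle 2. The neighbours of Srebf1 were more distant: Gna14 (0.252), Dclk3 (0.265) and Fam219b (0.279).

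The targets of the pathway were taken from lists of known SREBP targets. Of 22 lipogenic genes assigned to SREBP-1, 21 fell as deposited, beside 43.5% of all genes, with a median log2 fold change of -2.47 against -0.64 over all genes. After median-ratio scaling 15 fell, beside 13.7% (median -1.78 against 0.00), and after length-trend removal 17 fell, beside 11.6% (median -1.72 against 0.02). Without ONX-0914 3 all 22 fell, beside 60.6%, and with ONX-0914 3 alone 20 fell, beside 27.9%. The medians of the list against the vehicle mean were -2.78, -1.99 and -2.71 in ONX-0914 1, 3 and 4, whereas Srebf1 itself was lowest in ONX-0914 3. Scd1, the desaturase that makes oleate, was at 88.7, 119 and 61.6 FPKM in libraries ONX-0914 1, 3 and 4, compared with 6304, 3847 and 3590 FPKM in vehicle 1, 2 and 4. Its log2 fold change was -5.66 (limma adjusted p = 8.71e-05), -4.85 after median-ratio scaling (adjusted p = 0.000563) and -4.75 after length-trend removal (adjusted p = 0.000219). Elovl5, a fatty acid elongase, fell by 3.66 on the log2 scale, to 20.9 ± 17.5 FPKM in ONX-0914 livers, against 235 ± 91.3 FPKM in vehicle livers (SD, n = 3 each; adjusted p = 0.00172). It was -2.87 after median-ratio scaling and -2.96 after length-trend removal. Lpin1, a phosphatidate phosphatase, was the gene not called, at -1.35 (adjusted p = 0.169).

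Of 23 cholesterol genes assigned to SREBP-2, 11 fell and 1 rose as deposited, beside 43.5% of all genes lower and 2.56% higher, with a median log2 fold change of -1.12 against -0.64 over all genes. After median-ratio scaling 3 fell and 2 rose, beside 13.7% and 14.3% (median -0.37 against 0.00), and after length-trend removal again 3 fell and 2 rose, beside 11.6% and 9.4% (median -0.31 against 0.02). Without vehicle 1, 7 fell, beside 24.1%, and with ONX-0914 3 alone 9 fell, beside 27.9%. Idi1, an isoprenoid isomerase, fell by 2.49 on the log2 scale (limma adjusted p = 0.0189), but was not called after median-ratio scaling, at -1.74 (adjusted p = 0.0864), or after length-trend removal, at -1.75 (adjusted p = 0.0885), nor without ONX-0914 4, vehicle 1 or vehicle 4 (adjusted p = 0.0532, 0.0679 and 0.0537). Sqle, squalene epoxidase, rose to 99.7, 88.4 and 117 FPKM in libraries ONX-0914 1, 3 and 4, compared with 52.0, 31.8 and 29.3 FPKM in vehicle 1, 2 and 4. Its log2 fold change was 1.44 (limma adjusted p = 0.00343), 2.25 after median-ratio scaling (adjusted p = 0.00631) and 2.13 after length-trend removal (adjusted p = 0.00482), opposite in direction to Srebf2 and Insig1. Mvd, a mevalonate pathway decarboxylase, had the value nearest to 0, at 0.05 (adjusted p = 0.933).

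**Figure D5:**
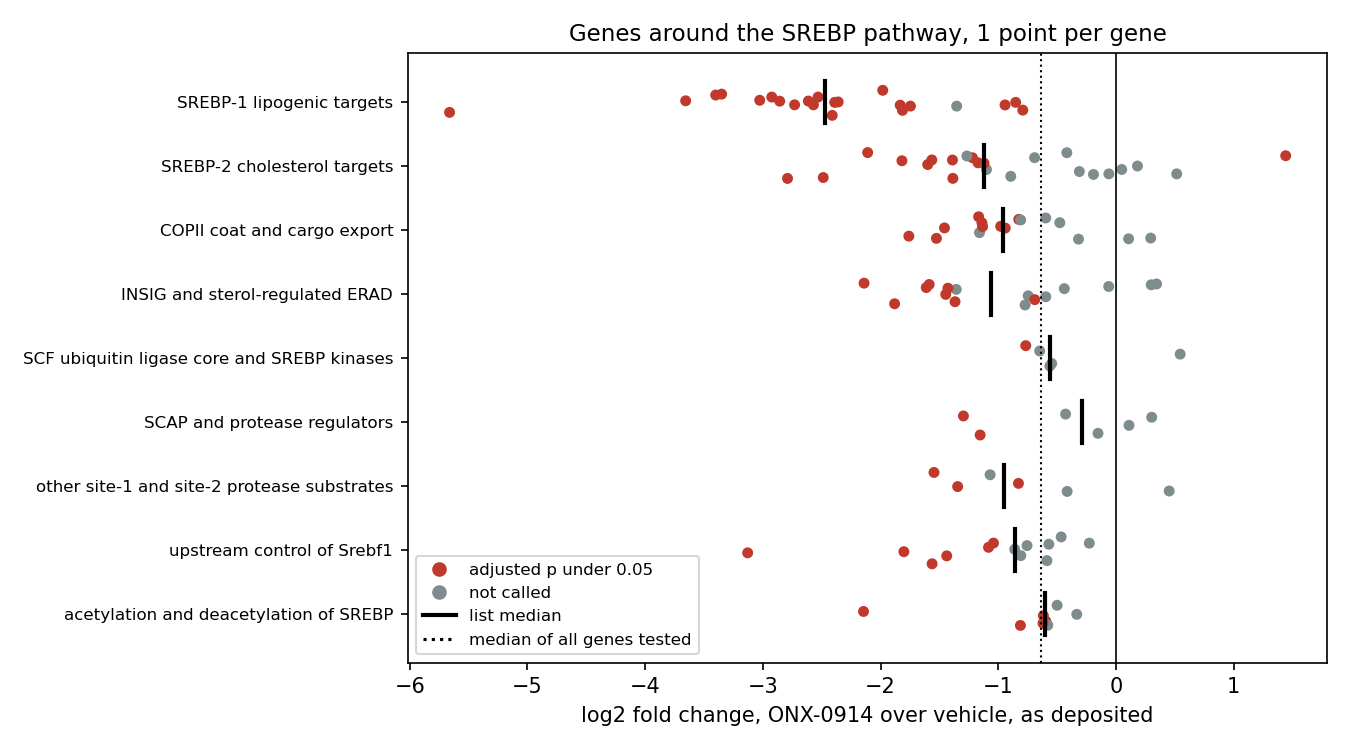
Log2 fold change as deposited, ONX-0914 over vehicle (x axis), of each tested gene in 9 lists around the SREBP pathway (y axis), red where the adjusted p was under 0.05; bars give list medians and the dotted line the median of all genes (-0.64). The SREBP-1 targets have the lowest list median (-2.47), and Sqle is the only red point to the right of 0.

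Transport and retention were followed through 2 lists. Of 16 genes of the COPII coat and cargo export, 9 fell as deposited, beside 43.5% of all genes (median -0.96 against -0.64). Without ONX-0914 3 there were 14 falls, beside 60.6%, and with ONX-0914 3 alone 3, beside 27.9%. Without ONX-0914 4 or vehicle 4 there were 5 falls each, beside 28.2% and 27.6%, and without vehicle 1 or vehicle 2 there were 4 each, beside 24.1% and 26.4%. After median-ratio scaling 1 fell and 1 rose, beside 13.7% and 14.3%, and after length-trend removal 1 fell, beside 11.6%. Sar1b, the GTPase that starts coat assembly and carries hepatic lipoprotein cargo, fell to 152 ± 54.3 FPKM in ONX-0914 livers, against 500 ± 66.0 FPKM in vehicle livers (SD, n = 3 each; log2 fold change -1.76, limma adjusted p = 0.00202). It was called after median-ratio scaling too, at -0.94 (adjusted p = 0.0216), and after length-trend removal, at -1.61 (adjusted p = 0.0104). Sec23a, an inner coat subunit, fell by 1.52 on the log2 scale as deposited (adjusted p = 0.0112), but was not called after median-ratio scaling, at -0.79 (adjusted p = 0.0819), or after length-trend removal, at -0.65 (adjusted p = 0.107). Its paralog Sec23b was at 0.11 (adjusted p = 0.815) as deposited and at 0.88 after median-ratio scaling (adjusted p = 0.0537).

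Of 16 genes of INSIG and sterol-regulated degradation at the endoplasmic reticulum, 8 fell as deposited, beside 43.5% of all genes (median -1.06 against -0.64). Without ONX-0914 3 there were 13 falls, beside 60.6%, and with ONX-0914 3 alone 7, beside 27.9%. After median-ratio scaling 5 fell and 3 rose, beside 13.7% and 14.3%, and after length-trend removal 4 fell and 2 rose, beside 11.6% and 9.4%. Nploc4, a cofactor of the VCP segregase, fell to 3.46 ± 3.22 FPKM in ONX-0914 livers, against 15.8 ± 2.07 FPKM in vehicle livers (SD, n = 3 each; log2 fold change -2.14, limma adjusted p = 0.00553; -1.48 after median-ratio scaling, adjusted p = 0.0245). After length-trend removal it was -1.27 (adjusted p = 0.0272). Erlin2, a membrane protein of the same degradation route, fell by 1.88 on the log2 scale (adjusted p = 0.00303), and was -1.25 after median-ratio scaling (adjusted p = 0.0139) and -0.97 after length-trend removal (adjusted p = 0.0147). Ufd1, the partner of Nploc4 in the VCP cofactor, was at -0.06 (adjusted p = 0.820) as deposited, at 0.73 after median-ratio scaling (adjusted p = 0.0365) and at 0.47 after length-trend removal (adjusted p = 0.0974).

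The lists around the ligase, the escort and the proteases were short. Of 5 genes of the SCF core and the kinases that mark SREBP, only Skp1, the SCF adaptor, fell as deposited (-0.77, limma adjusted p = 0.0110), beside 43.5% of all genes. It was 0.05 after median-ratio scaling and -0.05 after length-trend removal, neither called. In each of those settings 1 of the 5 genes rose, beside 14.3% and 9.4% of all genes. Leaving out ONX-0914 3 gave 4 falls and 1 rise, beside 60.6% of all genes lower and 6.89% higher. Without vehicle 1 Skp1 was -0.76 and missed the threshold (adjusted p = 0.0518). Of 6 regulators of SCAP and the proteases, Pgrmc1, a haem-binding membrane protein that binds SCAP, and Paqr3, a Golgi anchor of SCAP and SREBP, fell by 1.30 and 1.15 on the log2 scale as deposited (adjusted p = 0.0162 and 0.00673), 2 of 6 beside 43.5%. Neither was called after median-ratio scaling (-0.48 and -0.77, adjusted p = 0.269 and 0.0508) or after length-trend removal (-0.83 and -0.57, adjusted p = 0.0974 and 0.0757). Pgrmc1 missed the threshold without ONX-0914 4 or vehicle 1 (adjusted p = 0.0538 and 0.0535). Hsp90aa1, a chaperone of the SCAP and SREBP complex, was at 0.11 as deposited (adjusted p = 0.793), and rose after median-ratio scaling (0.92, adjusted p = 0.0350) and after length-trend removal (0.89, adjusted p = 0.0393). The list had 2 rises in the first of these, beside 14.3%, and 1 in the second, beside 9.4%. Of 8 other substrates of the site-1 and site-2 proteases, 6 were tested and 3 fell as deposited, beside 43.5% of all genes. After median-ratio scaling 1 fell and 1 rose, beside 13.7% and 14.3%. After length-trend removal limma called none lower and 1 higher, beside 11.6% and 9.4%. There were 2 lower at an unadjusted p under 0.05, beside 2114 of all 10743 genes. Atf6, the membrane-bound factor of the unfolded protein response, fell by 1.55 on the log2 scale (adjusted p = 0.0117) and Gnptab, a lysosomal targeting enzyme cut by the site-1 protease, by 1.34 (adjusted p = 0.00260). After median-ratio scaling, Atf6 was at -0.99 (adjusted p = 0.0579) and Gnptab at -0.88 (adjusted p = 0.0152). After length-trend removal neither was called, at -0.66 (adjusted p = 0.0951) for Atf6 and -0.43 (adjusted p = 0.109) for Gnptab.

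Upstream of Srebf1, 13 of 15 listed genes of LXR, insulin, mTOR and AMPK control were tested and 6 fell as deposited, beside 43.5% of all genes (median -0.86 against -0.64). The count was 12 without ONX-0914 3, beside 60.6%, and 4 with ONX-0914 3 alone, beside 27.9%. It was 4 without vehicle 1 or vehicle 4, beside 24.1% and 27.6%, 4 after median-ratio scaling, beside 13.7%, and 3 after length-trend removal, beside 11.6%. Rxra, the partner receptor of LXR, fell to 2.31, 11.1 and 2.86 FPKM in libraries ONX-0914 1, 3 and 4, compared with 41.4, 46.7 and 49.95 FPKM in vehicle 1, 2 and 4. Its log2 fold change was -3.13 (SE 0.44, limma adjusted p = 0.00180), -2.41 after median-ratio scaling (adjusted p = 0.00791) and -2.22 after length-trend removal (adjusted p = 0.00648). Insr, the insulin receptor, fell by 1.80 on the log2 scale (adjusted p = 0.00480; -1.23 after median-ratio scaling, adjusted p = 0.0246), and was -0.97 after length-trend removal (adjusted p = 0.0226). Nr1h3, which encodes LXRα, was at -0.23 (adjusted p = 0.348).

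The study's title names acetylation of SREBP1 and HDAC2, so the genes of acetylation and deacetylation of SREBP were read too. Of 8 genes 5 fell as deposited, beside 43.5% of all genes (median -0.61 against -0.64), and 7 without ONX-0914 3, beside 60.6%. There was 1 fall without any other single library, beside 24.1% to 29.8%, and 1 with ONX-0914 3 alone, beside 27.9%. There was also 1 after median-ratio scaling, beside 13.7%, and 1 after length-trend removal, beside 11.6%. Kat2b, an acetyltransferase, was at 1.72, 6.22 and 1.71 FPKM in libraries ONX-0914 1, 3 and 4, compared with 15.7, 14.2 and 17.2 FPKM in vehicle 1, 2 and 4. It fell by 2.14 on the log2 scale (limma adjusted p = 0.00365), and its value was -1.48 after median-ratio scaling (adjusted p = 0.0170) and -1.24 after length-trend removal (adjusted p = 0.0170). Ep300, the acetyltransferase p300 known to act on SREBP, fell by 0.81 as deposited (adjusted p = 0.0380), was at -0.33 after median-ratio scaling (adjusted p = 0.310) and at 0.02 after length-trend removal (adjusted p = 0.952), and leaving out any single library but ONX-0914 3 ended its call (adjusted p from 0.0819 to 0.126). Hdac2 was at 14.7 ± 1.81 FPKM in ONX-0914 livers and 18.7 ± 0.340 FPKM in vehicle livers (SD, n = 3 each), a log2 fold change of -0.33 (adjusted p = 0.225). After median-ratio scaling it was at 0.44 (adjusted p = 0.149).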

How the data were processed

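The authors deposited FPKM values, given to 2 decimals. The unit was read from the values, since the sources used here give neither the scaling nor the annotation. Tools listed in the submitters' processing notes are edgeR, featureCounts 1.6.0, HISAT2 2.0.1, cutadapt 1.11 and FastQC 0.11.5, and the builds are GRCm38 and mm10. Per the labels' protocols, RNA was extracted with TRIzol and mRNA was enriched.

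Columns were matched to libraries by name, and no library pair was identical. Genes above 1 FPKM in at least 3 libraries were tested on log2(FPKM + 1) with limma 3.58.1 in R 4.3.3 (variance trend, no block, Benjamini-Hochberg over all 10743 genes), and were called at an adjusted p under 0.05. The code of the fit was run on simulated data with equal noise in every gene and no common shift or length trend. That run does not test the fit on these libraries. On this scale the change of a low gene is understated. Transcript lengths, known for 98.2% of tested genes, are those of the longest coding transcript, and each library's trend was smoothed by lowess. Ratios were tested by exact permutation over libraries.

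Named are all 9 genes, from each list the 2 largest called rises and falls and the uncalled value nearest to 0, and the 3 nearest profiles. Not every gene this rule selects is reported here. Gene lists and cell type markers are textbook sets. The 9 genes and these lists were chosen with earlier results of these data known. Results were recomputed under 18 other settings and 1 more chosen after seeing the data (ONX-0914 3 alone). Values are not counts, so no count test was run.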

Additional observations from a re-analysis of the deposited data

How the results depend on the processing

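Insig1 was called lower in all 19 alternatives, Insig2 in 14, Srebf2 in 12, Scap in 10, Mbtps1 in 8, Mbtps2 in 5, Srebf1 and Rnf139 in 3 each and Fbxw7 in 0. The number of the 9 genes called lower, 6 as deposited, was 1 scaled by median ratio or by upper quartile, 2 quantile normalized, 1 with the length trend removed, 8 with equal sums, 3 with ONX-0914 3 alone, and 1 to 7 with 1 library left out (1 without vehicle 1, 7 without ONX-0914 3). Over all genes, 275 higher and 4673 lower as deposited became 1538 and 1471 by median ratio, 1118 and 1334 by quantile, 1074 and 1956 by upper quartile, 1010 and 1241 with the length trend removed, 170 and 5097 with equal sums, 2992 lower with ONX-0914 3 alone, and 92 to 740 higher and 2590 to 6514 lower with 1 library left out.

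Directions turned as follows. By median ratio, Scap was 0.049, Rnf139 0.18 and Fbxw7 0.20. By upper quartile Fbxw7 was 0.082, and by quantile Mbtps2 was 0.019, Rnf139 0.043 and Fbxw7 0.55. With the length trend removed Scap was 0.14, Mbtps1 0.063, Mbtps2 0.17, Rnf139 0.29 and Fbxw7 0.62. The Mbtps1 to Mbtps2 ratio was 0.29 by median ratio, 0.19 by upper quartile, 0.53 with a pseudocount of 0.1 and 0.14 with 0.5. The Srebf1 to Srebf2 ratio was -0.18 by quantile and -1.40 with ONX-0914 3 alone, and ran from -0.28 (without ONX-0914 4; -0.11 without ONX-0914 1) to 1.01 with 1 library left out. The Insig1 to Insig2 ratio ran from -0.95 to 0.23 (without ONX-0914 1). Scalings that centre the median gene move each gene by construction, and the other causes were not tested. Libraries were left out only from values as deposited, not from scaled or length-corrected ones.

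Numbers 1 and 4 occur in both groups, but the deviations of same-numbered libraries correlated at only 0.0011 and 0.13, so the numbers were not taken to pair the libraries. With a replicate block 7 of the 9 genes were lower (Rnf139 added), with 604 genes higher and 5973 lower over all. With the block and the length trend removed 2 of the 9 were lower, with 1595 genes higher and 1812 lower, and Srebf1 was 0.55, Scap 0.37, Mbtps1 0.085, Mbtps2 0.22, Rnf139 0.31 and Fbxw7 0.57. Absolute depth is unknown, so the counting error of Mbtps2 and Fbxw7, the lowest of the 9, cannot be given.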
